A study of Mus musculus with 15 samples.

Results

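The genes described here encode the 8 receptor chains through which a T cell receives IL-12, IL-18, interferon-gamma and type I interferon: Il12rb1, Il12rb2, Il18r1, Il18rap, Ifngr1, Ifngr2, Ifnar1 and Ifnar2. They were chosen by name, as 4 receptors of 2 chains each, out of 55536 annotated genes in the gene table, and all 8 were among the 17366 genes that passed the filter on low counts. This choice, and that of the gene lists below, was made with earlier results of these data known. Counts of members set beside shares of all genes are therefore descriptions. The samples were CD8+ T cells of OT-I mice, a transgenic line whose T cells carry a receptor for an ovalbumin peptide, on a C57BL/6J background. RNA sequencing gave 15 libraries, 5 in each of 3 groups. Naive cells were purified from OT-I mice with no transfer. Ag cells were OT-I cells moved into wild-type C57BL/6J recipients that received the ovalbumin peptide, given with control rat IgG per the methods. Ag+Costim cells came from recipients given the same peptide with agonist antibodies to 2 costimulatory receptors, OX40 (CD134) and 41BB (CD137). The labels place collection from spleen and lymph nodes, at day 4 for Ag and Ag+Costim and with no day for Naive. The methods place sorting somewhat earlier than day 4. The OT-I donors lacked Rag1 or Rag2 per the methods, so the lymphocytes of the donor carry the transgenic receptor, whereas the recipients kept their own T cells, which were removed by sorting on a congenic marker and the transgenic receptor. Mice of both sexes were used per the methods, ages were not in the labels, and the study's legends count the replicates as mice, as many in a group as there are libraries, while the labels tie no library to an animal.

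IL-12 and IL-18 are made by dendritic cells and macrophages during infection, and together they drive interferon-gamma production by T cells and NK cells. The IL-12 receptor joins IL12RB1, which the IL-23 receptor also uses, to IL12RB2, which carries the docking site for STAT4. The IL-18 receptor is a member of the IL-1 receptor family, in which IL18R1 binds the cytokine and IL18RAP completes the complex that recruits MYD88. Interferon-gamma binds IFNGR1, and IFNGR2 is the chain that brings JAK2 and allows the receptor to signal. Type I interferons bind IFNAR2 with high affinity, and IFNAR1 brings TYK2 and completes the receptor. Loss of IFNGR2 from the surface is a known way in which interferon-gamma-producing T cells become unresponsive to their own cytokine.

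Promoter sequences are shown for 3 chains that had separate levels in Ag+Costim and Ag: Ifngr2, with its lowest mean in Ag+Costim, and Il12rb2 and Il18rap, both with their highest mean there. The RefSeq table of promoters (GRCm38.p6) held 9 entries for 7 of the 8 genes and none for Il12rb1. The 250 bases before each start are printed 5′ to 3′ on the strand of the gene, with matches to the searched motifs in capitals. Ifngr2 lies on the plus strand with its window at chr16:91546809-91547058. Il12rb2 lies on the minus strand with its window at chr6:67376189-67376438. Il18rap lies on the plus strand with its window at chr1:40515112-40515361.
Ifngr2: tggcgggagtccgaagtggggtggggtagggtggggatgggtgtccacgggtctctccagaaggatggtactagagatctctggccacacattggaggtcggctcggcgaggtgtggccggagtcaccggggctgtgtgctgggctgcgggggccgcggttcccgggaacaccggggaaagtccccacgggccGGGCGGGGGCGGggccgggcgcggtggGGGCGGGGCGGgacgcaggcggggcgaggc
Il12rb2: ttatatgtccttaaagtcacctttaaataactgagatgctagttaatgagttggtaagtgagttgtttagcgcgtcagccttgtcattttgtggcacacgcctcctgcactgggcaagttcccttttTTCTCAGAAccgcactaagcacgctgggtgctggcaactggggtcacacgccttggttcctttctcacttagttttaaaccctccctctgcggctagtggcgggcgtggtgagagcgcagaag
Il18rap: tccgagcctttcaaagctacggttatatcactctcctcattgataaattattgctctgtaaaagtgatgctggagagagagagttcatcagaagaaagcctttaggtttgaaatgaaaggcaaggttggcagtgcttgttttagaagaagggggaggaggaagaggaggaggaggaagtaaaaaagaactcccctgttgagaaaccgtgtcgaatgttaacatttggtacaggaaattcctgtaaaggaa
The search covered both strands for 5 motifs. The STAT site was searched as TTCNNNGAA and the AP-1 site as TGANTCA, in which N stands for any base. The T-box site was written as TCACACC, the GC box of Sp factors as GGGCGG and the core of ETS factors as ACCGGAA. No searched motif contains another. The Ifngr2 window was 74.0% G+C and held 25 CpG and 4 GC boxes, which are the capitals in its sequence and lie as 1 adjoining pair and 1 overlapping pair. Over 32817 windows of the same length, the median was 52.4% G+C and 6 CpG, and 32.7% held a GC box. The Il12rb2 window held 1 STAT site, a match found in 7.01% of windows, and no other searched motif. Among the windows not printed, that of Ifnar2 held 1 STAT site and that of Il18r1 at chr1:40465756-40466005 held 2. The windows of Ifngr1 and Ifnar1 held 2 GC boxes each. The Il18rap window was 42.0% G+C with 4 CpG and held none of the 5 motifs. The AP-1, T-box and ETS letters were found in 6.75%, 3.33% and 2.89% of all windows and in none of the 9 windows of these receptor genes. A match describes letters in this window and is not evidence that a factor binds there.

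Total counts per library ranged from 4865952 (Ag 3) to 25280667 (Naive 3), and 16.9% to 53.6% of sequenced reads were counted, with Ag 3 lowest. On the first principal component of log2 CPM, which held 53.3% of the variance, Ag 2 and Ag 5 lay at 87.8 and 109 near Ag+Costim (67.8 to 92.1), while Ag 1, Ag 3 and Ag 4 lay between -75.7 and -56.8, and Naive 5 lay at 2.03 against -113 to -74.3 for the other 4 Naive libraries. On the second component (18.7% of the variance), Ag 3 lay apart at -151, against -26.6 to 65.5 for all other libraries. Ag 2 and Ag 5 also had the lowest listed input amounts, 1.4 and 1.8 against 7.0 to 10 elsewhere, a quantity listed without a unit. Lane 2 carried the Ag libraries with Ag+Costim 1 to 3, and lane 3 the Naive libraries with Ag+Costim 4 and 5, so that no lane holds both Ag and Naive and their comparison with lane as a term rests on the Ag+Costim libraries of both lanes. In a deposited FPKM table, not used for any value here, the columns of Ag 1 and Naive 5 hold the same values throughout, whereas the count tables used here hold different values for these 2 libraries. The marker counts that follow stand beside 21.0% of all genes tested called higher and 23.6% called lower in Ag+Costim vs Naive. In Ag vs Naive, 3.05% of all genes were called higher. The 7 CD8 T cell markers each had counts in all 15 libraries, and 4 of them were called lower in Ag+Costim than in Naive (summed level 5120 to 6130 against 5690 to 8820 CPM). Of 6 NK cell markers, 3 were called lower in Ag+Costim than in Naive, with sums of 18.8 to 110 CPM (Naive), 18.6 to 92.3 CPM (Ag) and 9.21 to 29.2 CPM (Ag+Costim), and Ncr1, Klrb1c, Klra4 and Klra8 at 0 in Ag+Costim 2. The 6 erythroid markers summed to 1310 CPM in Ag 3, against at most 151 CPM in Naive and 37.0 CPM in Ag+Costim, and 2 of 6 myeloid markers were called higher in Ag+Costim than in Naive (190 to 266 against 81.1 to 284 CPM). Of 6 B cell markers, 4 were called higher in Ag than in Naive and 1 in Ag+Costim, where the summed level was 584 to 974 CPM (Naive), 603 to 1510 CPM (Ag) and 546 to 827 CPM (Ag+Costim). Their median log2 fold change in Ag vs Naive was 4.79. The mean log2 of CPM plus 1 over these markers was 6.08, 7.22 and 6.51 in Ag 1, Ag 3 and Ag 4. It was 3.21 and 3.41 in Ag 2 and Ag 5, 2.76 to 3.52 in Naive and 3.68 to 4.54 in Ag+Costim. Of 4 gamma-delta T cell markers, 3 were called lower in Ag+Costim than in Naive (80.8 to 117 against 147 to 368 CPM). The part of these cells in the results below was not tested, and in bulk RNA fewer cells of a type and less RNA per cell cannot be told apart.

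The interferon-gamma receptor chain Ifngr2 was lower in Ag than in Naive and lowest in Ag+Costim, while Il12rb1, Il18r1 and Il18rap were higher in Ag+Costim than in Naive. In the edgeR fit described next, no chain differed past the threshold between Ag+Costim and Ag. Il18r1 had a log2 fold change of 0.02 in that comparison. Levels are given in CPM, counts relative to the library total after scaling by the trimmed mean of M values (TMM), and a gene was called at a false discovery rate (FDR) under 0.05 in an edgeR fit over all genes. In Ag vs Naive, 2 of 8 chains were called, against 6.71% of all genes tested. They were Il18r1, higher (3.05% of all genes were called higher), and Ifngr2, lower (3.66% were called lower). In Ag+Costim vs Naive, 5 of 8 chains were called, against 44.7% of all genes, a share near the background: Il12rb1, Il18r1 and Il18rap were higher (21.0% of all genes) and Ifngr2 and Ifnar1 lower (23.6% of all genes). In Ag+Costim vs Ag, edgeR called none of the 8 chains, and 0.0346% of all genes were called. In that comparison 2 chains had an unadjusted edgeR p under 0.05, a threshold at which no share of all genes is given here. DESeq2 called 1 chain there and limma-voom with sample weights called 6. Both methods also called many more of all genes than edgeR, as given in the section on processing, so 0.0346% is not their background. The median log2 fold change of the 8 chains was 0.32 (Ag vs Naive), 0.08 (Ag+Costim vs Ag) and 0.36 (Ag+Costim vs Naive), beside 0.08, -0.10 and -0.08 over all genes.

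**Figure D1:**
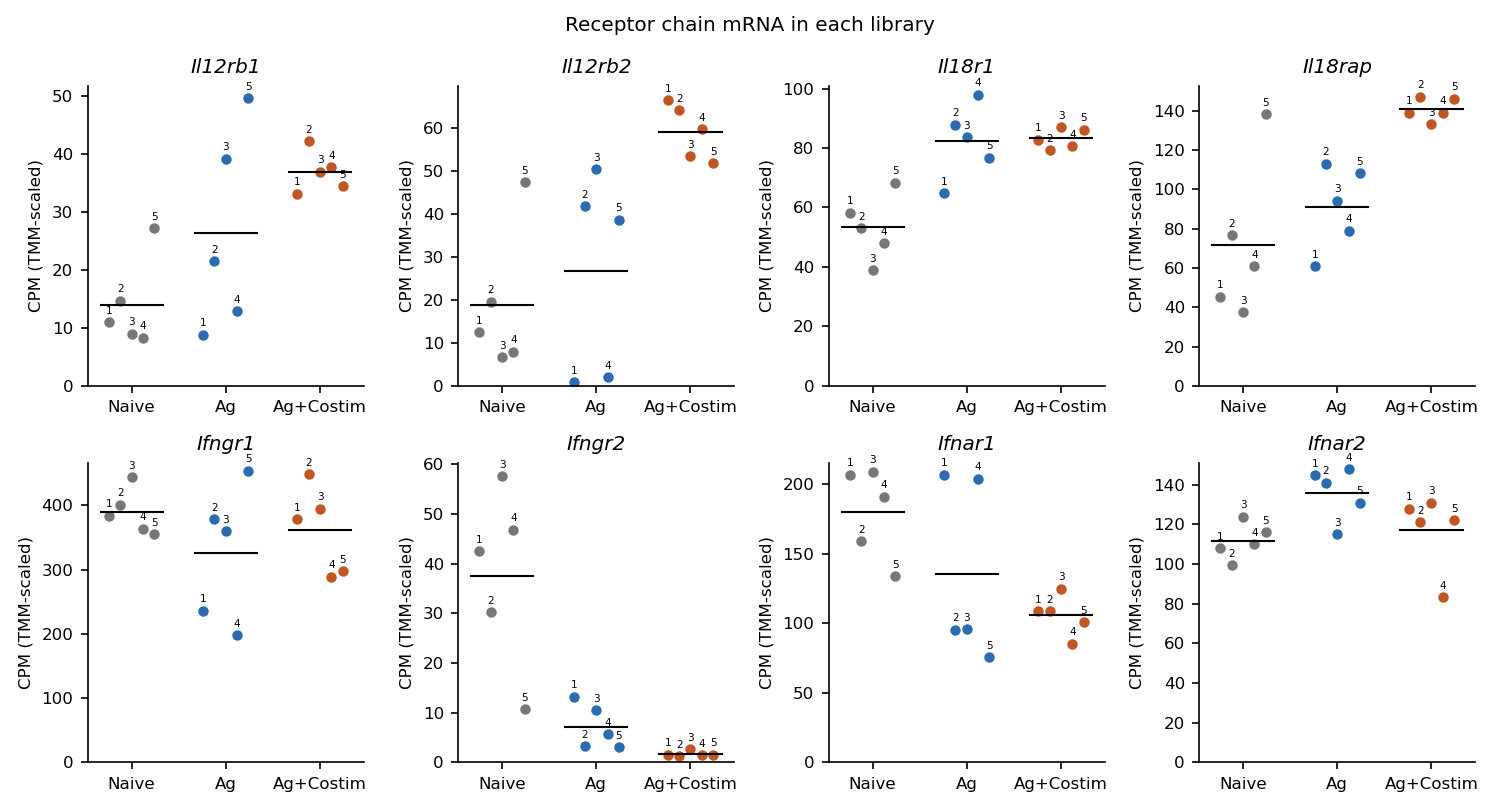
Level of each receptor chain (CPM, linear axis from 0) in the 5 libraries of each group, with points numbered by replicate and a bar at the group mean. Ifngr2 lay between 1.22 and 2.60 CPM in Ag+Costim against 10.7 to 57.5 CPM in Naive, and Il12rb2 in Ag was split between Ag 1 and Ag 4, near 0, and the other Ag libraries.

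The groups' ranges of CPM also showed how far the chains separated. In Ag+Costim vs Naive, 5 of 8 chains had no overlap between the groups (Il12rb1, Il12rb2, Il18r1, Ifngr2 and Ifnar1), against 45.0% of all genes. In Ag+Costim vs Ag, 3 of 8 did not overlap (Il12rb2, Il18rap and Ifngr2), against 6.33% of all genes. In Ag vs Naive, every chain overlapped between the groups, whereas 3.85% of all genes did not. Il12rb2 is thus separated from both other groups in Ag+Costim although it was not called in either comparison, and Il18rap was called against Naive although Naive 5 reached the Ag+Costim range.

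Compared per length, as TPM (counts divided by transcript length and scaled to a common total), the 8 chains spanned a wide range of levels within a cell population. In Naive cells the order was Ifngr1 (310 ± 39.6 TPM, SD, n = 5), Ifnar1 (89.3 ± 22.5), Ifnar2 (80.3 ± 10.3), Il18r1 (27.8 ± 4.75), Il18rap (24.5 ± 12.3), Ifngr2 (16.7 ± 8.59), Il12rb2 (10 ± 8.46) and Il12rb1 (8.94 ± 3.95). Of these neighbours, Ifngr1 and Ifnar1 and then Ifnar2 and Il18r1 were apart in every library range, while the others lay within each other's spread. In Ag+Costim cells the order was Ifngr1 (257 ± 48.1), Ifnar2 (76.2 ± 13.5), Ifnar1 (43.5 ± 5.78), Il18rap (43.5 ± 2.23), Il18r1 (41.2 ± 2.33), Il12rb2 (28.9 ± 3.06), Il12rb1 (19.7 ± 1.93) and Ifngr2 (0.661 ± 0.213). There the ranges of Ifnar1, Il18rap and Il18r1 overlapped, and those of all other neighbours did not. In Ag cells Ifngr1 was again highest (219 ± 45.0) and Ifngr2 lowest (2.84 ± 1.98), and Il12rb2 varied from 0.473 to 22.5 TPM.

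Ifngr2, which encodes the signalling chain of the interferon-gamma receptor (chr16:91547072-91565623, plus strand, GRCm38), showed the largest difference of the 8. In Naive 1 to 5 it was at 42.5, 30.2, 57.5, 46.8 and 10.7 CPM. In Ag 1 to 5 it was at 13.2, 3.24, 10.5, 5.73 and 3.07 CPM, and in Ag+Costim 1 to 5 at 1.59, 1.22, 2.60, 1.43 and 1.53 CPM. All Ag+Costim libraries were below all Ag libraries, and Ag overlapped Naive through Naive 5. These Ag+Costim levels rest on 15 to 37 counts per library, against 161 to 1541 in Naive. Against Naive, Ifngr2 had a log2 fold change of -2.42 ± 0.47 (SE) in Ag (edgeR FDR = 0.0135) and of -4.48 ± 0.52 in Ag+Costim (FDR = 0.00059), the latter a 22.3-fold lower level. Against Ag, costimulated cells had -2.06 ± 0.49 (FDR = 0.0807), which did not pass the threshold. That comparison passed in 6 of 21 alternatives. These were without Ag 2 (FDR = 0.0291), without Ag 5 (FDR = 0.0205), without both (log2 fold change -2.36, FDR = 0.00193), without Ag 3 and Naive 5 (FDR = 0.032), in DESeq2 (FDR = 0.00168) and in limma-voom (FDR = 0.000183). The fit without both was chosen after they were seen to lie near Ag+Costim, which favours a difference from Ag. The comparison did not pass without Ag 1 (FDR = 0.155), Ag 4 (FDR = 0.114) or any 1 Ag+Costim library (FDR = 0.14 to 0.17). With only those 2 groups in the fit the FDR was 0.133, and with the replicate block 0.134. Within lane 3 the difference between Ag+Costim and Naive was -4.67 ± 0.75 (FDR = 0.0198), and within lane 2 that between Ag+Costim and Ag was -1.95 ± 0.61 (FDR = 0.628). The Ag vs Naive call was lost with only those 2 groups in the fit (-2.44 ± 0.53, FDR = 0.12) and with lane as a term (-2.71 ± 0.91, FDR = 0.612), at a fold change as large as in the fit of all libraries. No other annotated gene shares exonic bases with Ifngr2.

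Ifngr1, the ligand-binding partner of Ifngr2 (chr10:19591949-19610229, plus strand), is described next. Its level was 355 to 444 CPM in Naive, with a median of 384. It was 236, 379, 360, 198 and 454 CPM in Ag 1 to 5 and 379, 449, 395, 289 and 298 CPM in Ag+Costim 1 to 5. The 3 groups overlapped, and Ag 1 and Ag 4 were the lowest libraries. The log2 fold change was -0.26 ± 0.20 in Ag vs Naive (edgeR FDR = 0.385), 0.15 ± 0.20 in Ag+Costim vs Ag (FDR = 0.644) and -0.11 ± 0.20 in Ag+Costim vs Naive (FDR = 0.674). Without Ag 2 and Ag 5, Ifngr1 was called lower in Ag than in Naive (-0.65 ± 0.17, FDR = 0.0436) and higher in Ag+Costim than in Ag (0.67 ± 0.17, FDR = 0.00565). That fit was chosen after these libraries were seen to lie near Ag+Costim, and it called many more of all genes in Ag+Costim vs Ag.

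Il12rb2, the STAT4-docking chain of the IL-12 receptor (chr6:67291318-67376188, minus strand), was highest in Ag+Costim and the most variable chain in Ag. In Naive 1 to 5 it was at 12.5, 19.6, 6.68, 7.99 and 47.4 CPM. In Ag 1 to 5 it was at 0.861, 41.8, 50.3, 2.0 and 38.6 CPM, and in Ag+Costim 1 to 5 at 66.4, 64.0, 53.3, 59.7 and 51.8 CPM. Every Ag+Costim library was above every Ag and Naive library, Naive 5 lay with Ag 2, Ag 3 and Ag 5, and Ag 1 and Ag 4 were below all Naive libraries. Ag 1 and Ag 4 hold 10 and 28 counts of Il12rb2. The log2 fold change in Ag+Costim vs Naive was 1.65 ± 0.82 (edgeR FDR = 0.106), in Ag+Costim vs Ag 1.16 ± 0.81 (FDR = 0.367) and in Ag vs Naive 0.50 ± 0.81 (FDR = 0.694), none past the threshold. Against Naive, the Ag+Costim difference passed without Naive 5 (2.36 ± 0.85, FDR = 0.0335) and with only those 2 groups in the fit (1.60, FDR = 0.013), and within lane 3 it was 1.59 ± 0.66 (FDR = 0.0889). Against Ag, the Ag+Costim difference was 4.94 ± 0.61 in limma-voom with sample weights (FDR = 3.2e-05). It was 2.22 ± 0.99 without Ag 2 and Ag 5 (FDR = 0.0756), a fit chosen after seeing the data. The Ag vs Naive direction turned in limma-voom with sample weights (-2.43, FDR = 0.0139) and without Ag 2 and Ag 5 (-0.43, FDR = 0.827).

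The split of Il12rb2 within Ag went with the state genes of those libraries. The summed level of 6 effector and cycling genes (Mki67, Top2a, Gzmb, Ccnb1, Cdk1 and Il2ra) was 370 and 380 CPM in Ag 1 and Ag 4 but 2590, 1900 and 2430 CPM in Ag 2, Ag 3 and Ag 5. In Naive 5 it was 1910 CPM, against 101 to 713 CPM in the other Naive libraries, and in Ag+Costim it was 2090 to 2830 CPM. The 6 naive-state genes summed to 4290 and 4580 CPM in Ag 1 and Ag 4, to 1640 to 1770 CPM in the other Ag libraries and to 2810 CPM in Naive 5. The part of this difference in state in the Il12rb2 values was not tested. Il12rb2 also shares 819 of the 2998 bases of its main transcript with exons of Serbp1 on the opposite strand, an RNA-binding protein gene at 340 to 833 CPM, and the libraries do not record strand. The part of Serbp1 reads in the Il12rb2 counts was not tested.

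Il12rb1, the chain shared with the IL-23 receptor (chr8:70808449-70821424, plus strand), was higher in Ag+Costim than in Naive. In Naive 1 to 5 it was at 11.0, 14.7, 8.99, 8.34 and 27.2 CPM. In Ag 1 to 5 it was at 8.87, 21.5, 39.2, 12.9 and 49.7 CPM, and in Ag+Costim 1 to 5 at 33.2, 42.3, 37.0, 37.8 and 34.5 CPM. Ag+Costim did not overlap Naive, while Ag covered both ranges, with Ag 1 and Ag 4 at the Naive level and Ag 5 above all others. The log2 fold change was 1.40 ± 0.43 in Ag+Costim vs Naive (edgeR FDR = 0.0216), 0.91 ± 0.43 in Ag vs Naive (FDR = 0.176) and 0.49 ± 0.42 in Ag+Costim vs Ag (FDR = 0.464). Within lane 3 the Ag+Costim vs Naive value was 1.38 ± 0.42 (FDR = 0.04). The call was lost without Naive 1 (FDR = 0.057), Naive 3 (FDR = 0.0532) or Naive 4 (FDR = 0.0589), each time with a log2 fold change of at least 1.26, and with lane as a term (1.36 ± 0.55, FDR = 0.089). Without Ag 2 and Ag 5, Il12rb1 was also called higher in Ag+Costim than in Ag (1.18 ± 0.42, FDR = 0.0328). That fit was chosen after these libraries were seen to lie near Ag+Costim, and it called many more of all genes in this comparison.

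Il18r1, the IL-18-binding chain (chr1:40465552-40500854, plus strand), was the chain that was higher than Naive in both primed groups and did not separate them from each other. In Naive 1 to 5 it was at 58.3, 53.1, 39.0, 48.1 and 68.3 CPM. In Ag 1 to 5 it was at 64.9, 87.8, 83.6, 97.9 and 76.8 CPM, and in Ag+Costim 1 to 5 at 82.8, 79.3, 87.1, 80.6 and 86.2 CPM. Only Naive 5 reached into the Ag range, through Ag 1, and no Naive library reached Ag+Costim. The log2 fold change was 0.62 ± 0.14 in Ag vs Naive (edgeR FDR = 0.0215), 0.64 ± 0.14 in Ag+Costim vs Naive (FDR = 0.00662) and 0.02 ± 0.14 in Ag+Costim vs Ag (FDR = 0.948). Both comparisons with Naive share the same control libraries. The Ag vs Naive call was kept in 12 of 20 alternatives, with a log2 fold change of 0.53 to 0.78 over all of them. It was lost without Ag 2, Naive 1, Naive 3 or Naive 4 (FDR = 0.0549 to 0.0741), without Ag 2 and Ag 5 (FDR = 0.0727), with only those 2 groups in the fit (FDR = 0.168), without a filter on low counts (FDR = 0.271) and with lane as a term (FDR = 0.626). The Ag+Costim vs Naive call was kept in 20 of 21 alternatives, among them lane 3 alone (0.65 ± 0.19, FDR = 0.0383), and was lost with lane as a term (0.64 ± 0.19, FDR = 0.0562).

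Il18rap, the second chain of the IL-18 receptor (chr1:40515362-40551705, plus strand), begins 14.5 kb after the end of Il18r1. In Naive 1 to 5 it was at 45.3, 76.5, 37.5, 61 and 138 CPM. In Ag 1 to 5 it was at 60.8, 113, 94.1, 78.9 and 108 CPM, and in Ag+Costim 1 to 5 at 139, 147, 133, 139 and 146 CPM. Ag+Costim was above every Ag library, and Naive 5 alone among Naive libraries reached it. The log2 fold change was 0.98 ± 0.29 in Ag+Costim vs Naive (edgeR FDR = 0.0186), 0.35 ± 0.29 in Ag vs Naive (FDR = 0.409) and 0.63 ± 0.29 in Ag+Costim vs Ag (FDR = 0.179). Without Naive 5, Il18rap passed in Ag+Costim vs Naive with 1.37 ± 0.21 (FDR = 0.00061) and in Ag vs Naive (FDR = 0.0276). Without Ag 2 and Ag 5, a fit chosen after seeing the data that called many more of all genes, Il18rap was called in Ag+Costim vs Ag (1.05 ± 0.33, FDR = 0.0172). The Ag+Costim vs Naive call was lost without Naive 1 (FDR = 0.0524) or Naive 4 (FDR = 0.0512), within lane 3 (1.00 ± 0.43, FDR = 0.0954) and with lane as a term (0.99 ± 0.38, FDR = 0.0783).

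Of the type I interferon receptor chains, Ifnar1 was called lower in Ag+Costim than in Naive and Ifnar2 was not called. Ifnar1, the TYK2-binding chain (chr16:91485238-91507441, plus strand), was at 207, 159, 209, 191 and 134 CPM in Naive 1 to 5. It was at 207, 95.4, 96.0, 204 and 75.6 CPM in Ag 1 to 5 and at 109, 109, 125, 85.3 and 101 CPM in Ag+Costim 1 to 5. Ag 1 and Ag 4 lay with Naive and the other Ag libraries within or below the Ag+Costim range, and Il12rb2 divided the Ag libraries in the same way. The log2 fold change was -0.77 ± 0.26 in Ag+Costim vs Naive (edgeR FDR = 0.0312), -0.41 ± 0.26 in Ag vs Naive (FDR = 0.295) and -0.36 ± 0.26 in Ag+Costim vs Ag (FDR = 0.385). This was the least stable of the 5 calls against Naive, being kept in 11 of 21 alternatives, and it was lost without any one of 7 libraries (Ag+Costim 1, 2, 4 or 5, or Naive 1, 3 or 4), with the FDR then between 0.0555 and 0.136. Within lane 3 it was -0.96 ± 0.23 (FDR = 0.0286), and it was also lost with lane as a term (-0.95 ± 0.37, FDR = 0.0828), without a filter on low counts (-0.61 ± 0.31, FDR = 0.219) and with library totals from before the filter (-0.71 ± 0.28, FDR = 0.0518).

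Ifnar2, the high-affinity chain (chr16:91372783-91405589, plus strand), was at 99.4 to 124 CPM in Naive, 115 to 148 CPM in Ag and 83.3 to 131 CPM in Ag+Costim. The groups overlapped in every comparison. Its log2 fold change was 0.29 ± 0.12 in Ag vs Naive (edgeR FDR = 0.148), -0.22 ± 0.12 in Ag+Costim vs Ag (FDR = 0.275) and 0.07 ± 0.12 in Ag+Costim vs Naive (FDR = 0.65).

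**Figure D2:**
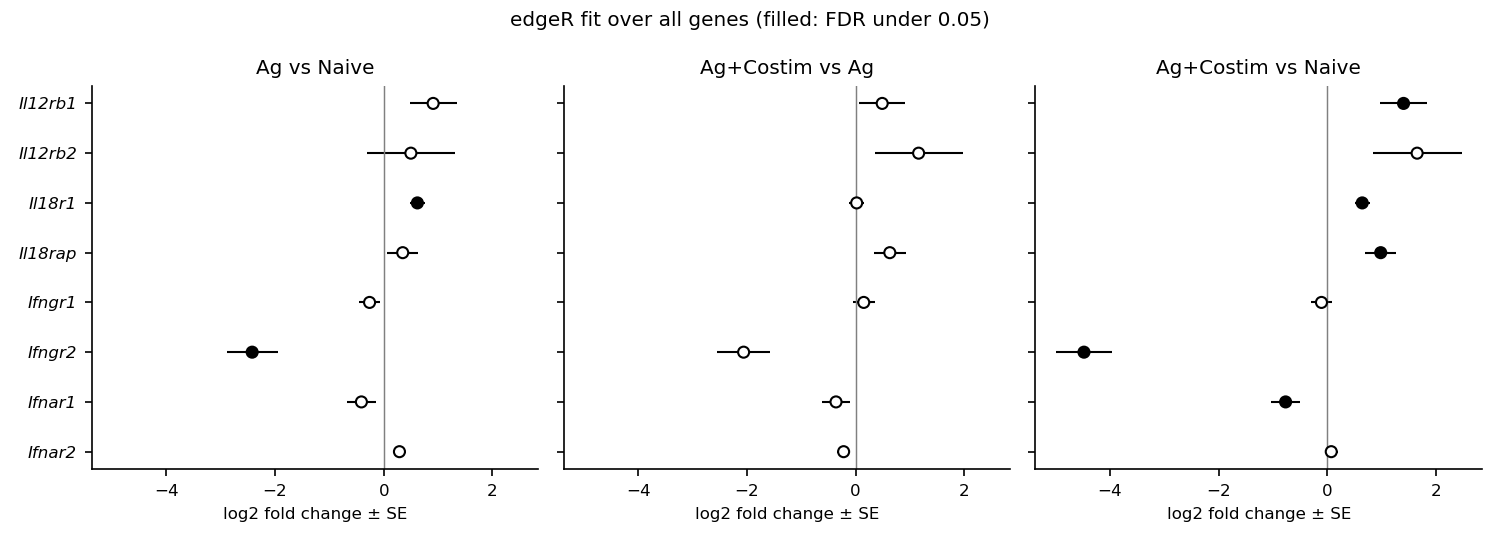
Log2 fold change of each receptor chain with its SE in the 3 comparisons of the edgeR fit, on 1 shared axis, with filled points for FDR under 0.05. Ifngr2 lies furthest from 0 in all 3 comparisons, at -2.42, -2.06 and -4.48, and the chains of the IL-12 and IL-18 receptors lie above 0, of which Il18r1 in Ag+Costim vs Ag (0.02) turned to -0.06 without TMM and Il12rb2 in Ag vs Naive (0.50) to -2.43 with limma-voom.

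The balance of the 2 chains of a receptor was read as the ratio of their TPM in each library, as a description without a test. For interferon-gamma, Ifngr1 exceeded Ifngr2 in every library, by 14.0-fold to 59.8-fold in Naive (59.8 in Naive 5, at most 23.8 in the others), 32.9-fold to 268-fold in Ag and 273-fold to 660-fold in Ag+Costim. The mean log2 ratio was 4.43 ± 0.88 (Naive, SD, n = 5), 6.55 ± 1.29 (Ag) and 8.63 ± 0.47 (Ag+Costim), and the lowest Ag+Costim library (8.09) lay just above the highest Ag library (8.06). For IL-12, the chains were near balance in Naive, with Il12rb1 over Il12rb2 at 0.07 ± 0.49 on the log2 scale. In Ag+Costim the ratio was -0.55 ± 0.20, so that Il12rb2 was the more abundant chain in all 5 libraries. In Ag it ran from -0.79 in Ag 2 to 3.58 in Ag 1 and 2.84 in Ag 4, where Il12rb1 exceeded Il12rb2 by 12-fold and 7.17-fold.

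For IL-18 the ratio of Il18r1 to Il18rap stayed within a factor of 1.97 in every library, with a mean log2 ratio of 0.29 ± 0.53 (Naive), 0.54 ± 0.30 (Ag) and -0.08 ± 0.14 (Ag+Costim). The Ag+Costim ratios, from -0.25 to 0.14, lay below all Ag ratios, from 0.26 to 0.92. For type I interferon, Ifnar1 was 1.14-fold to 1.42-fold above Ifnar2 in Naive 1 to 4, and Ifnar2 was 1.63-fold to 1.86-fold above Ifnar1 in all Ag+Costim libraries. Naive 5 (-0.60) lay near the Ag+Costim values, and Ag ran from -1.74 to 0.01.

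**Figure D3:**
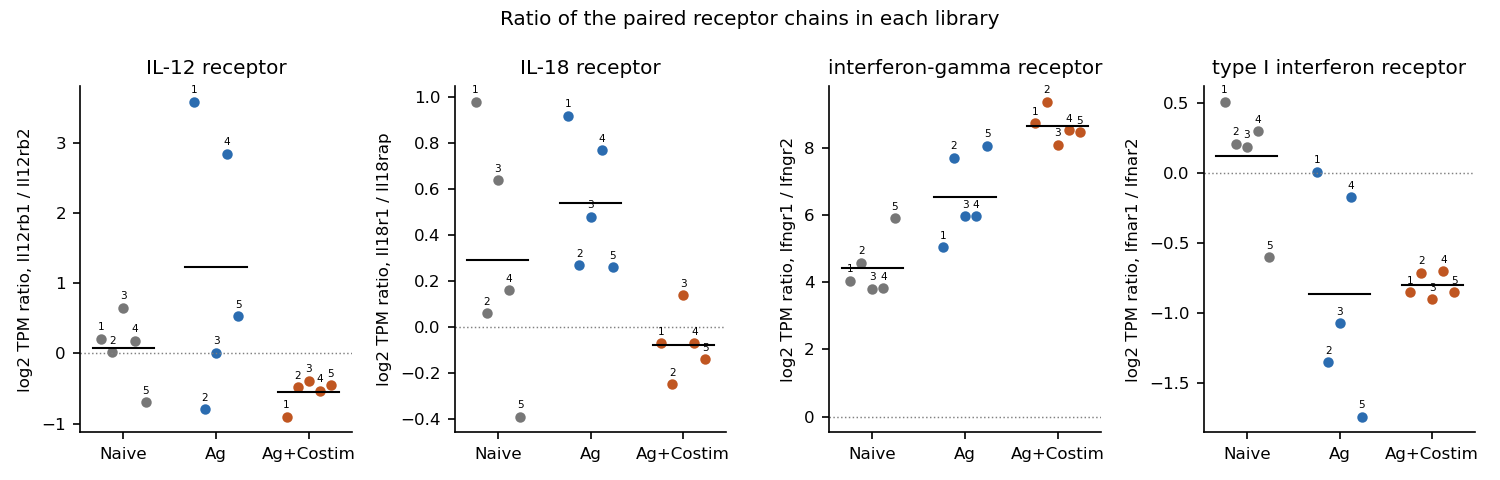
Log2 ratio of the TPM of the 2 chains of each receptor in every library, numbered by replicate, with a bar at the group mean and a dotted line at equal levels, on a separate scale for each receptor. The Ifngr1 to Ifngr2 ratio rises from a mean of 4.43 in Naive to 8.63 in Ag+Costim, and the Il12rb1 to Il12rb2 ratio of Ag 1 and Ag 4 stands above all others.

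Transcript usage, or how a gene's counts divide among its transcripts, gave no call for these receptors. Of the 8 genes, 6 had at least 2 transcripts that could be tested, and Il12rb2 and Ifngr2 could not be tested, their main transcripts holding 89.5% (Naive) to 99.3% (Ag+Costim) and at least 99.9% of counts. With edgeR's diffSpliceDGE, 0 of the 6 genes were called in any comparison, and none had an unadjusted p under 0.05, while of 7501 genes 0.547% (Ag vs Naive), 0.973% (Ag+Costim vs Ag) and 1.01% (Ag+Costim vs Naive) were called. The lowest adjusted p was that of Ifnar1 in Ag+Costim vs Naive (diffSpliceDGE FDR = 0.82). There a retained-intron transcript was at 20.7% ± 8.57 of Ifnar1 counts in Naive and 6.65% ± 2.06 in Ag+Costim (SD, n = 5), and the main coding transcript at 67.3% ± 13.0 and 81.8% ± 7.93. A transcript of Ifngr1 annotated as a target of nonsense-mediated decay, held 18.0% ± 5.18 of Ifngr1 counts in Naive and 22.9% ± 5.82 in Ag+Costim. Without a filter on low counts, Il18r1 had a gene FDR of 0.0213 in Ag vs Naive and 0.0163 in Ag+Costim vs Ag but did not meet the criterion for a call, and 329 of its counts were assigned to a transcript seen only in Ag 1, where it held 43.6% of Il18r1 counts.

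The ligands and downstream genes of these receptors give the setting of the 8 chains, and their numbers stand beside 21.0% of all genes called higher and 23.6% called lower in Ag+Costim vs Naive. Of 10 listed genes for ligands and the IL-18 decoy Il18bp, 4 passed the filter on low counts, Il18bp among them. Of these, 2 were called higher: Ifng, which encodes interferon-gamma, and Il18. Ifng was at 1.54, 2.05, 0.671, 1.67 and 5.32 CPM in Naive 1 to 5 and at 5.36 to 6.75 CPM in Ag+Costim (log2 fold change 1.40 ± 0.45, edgeR FDR = 0.0244). In Ag, Ifng was at 4.41 to 13.1 CPM and was also called higher than Naive (1.98 ± 0.45, FDR = 0.0222). Il18 was at 2.20 ± 2.89 CPM in Naive and 11.5 ± 1.92 CPM in Ag+Costim (SD, n = 5; log2 fold change 2.40 ± 0.72, FDR = 0.02).

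Of 11 tested type 1 effector genes, 4 were called higher and 2 lower in Ag+Costim than in Naive, with a median log2 fold change of 1.04. Tbx21, the T-bet factor that drives this programme, was at 50.6 to 254 CPM in Naive, 80.2 to 328 CPM in Ag and 322 to 397 CPM in Ag+Costim (1.68 ± 0.48 against Naive, edgeR FDR = 0.0161). Naive 5 (254 CPM) again stood with the primed libraries, and Ag 1 (80.2 CPM) and Ag 4 (103 CPM) were again the lowest of Ag. Cxcr3, a chemokine receptor of type 1 cells, rose by 1.70 ± 0.43 (FDR = 0.0112). Gadd45g, a stress kinase activator downstream of IL-12 and IL-18 (-0.86 ± 0.19, FDR = 0.00617), and Furin, a protease (-0.69 ± 0.25, FDR = 0.0368), were lower. Gadd45b, of the same family as Gadd45g, was called higher (0.7 ± 0.25, FDR = 0.0365) and is named here after its value was seen.

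Among 19 kinases, adaptors and STATs, 3 were called higher and 4 lower in Ag+Costim than in Naive, with a median of -0.25, and Stat4 was among the higher. Stat4, the transducer of IL-12, was at 306, 308, 305, 286 and 328 CPM in Naive 1 to 5 and at 359, 380, 403, 345 and 366 CPM in Ag+Costim 1 to 5 (0.27 ± 0.09, edgeR FDR = 0.0236). Myd88, the adaptor of IL-18, was higher by 0.48 ± 0.13 (FDR = 0.0142) and the p38-activating kinase Map2k3 by 1.23 ± 0.36 (FDR = 0.0177). Jak1, a kinase used by both interferon receptors, was lower by -0.53 ± 0.14 (FDR = 0.0126), as were Mapk14, which encodes p38 alpha (-0.44 ± 0.14, FDR = 0.0235), and Tab2, an adaptor of the kinase TAK1 (-0.58 ± 0.19, FDR = 0.0269).

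Of 13 feedback inhibitors, 1 was called higher and 4 lower, with a median of -0.49. Socs3 fell from 83.4 ± 36.5 CPM in Naive to 13.9 ± 4.65 CPM in Ag+Costim (log2 fold change -2.59 ± 0.46, edgeR FDR = 0.00298). Socs1, the main inhibitor of the interferon-gamma receptor, was at 37.0 ± 8.93 CPM in Naive and 12.8 ± 3.81 CPM in Ag+Costim (-1.53 ± 0.29, FDR = 0.00376), and both were also called lower in Ag than in Naive (FDR = 0.0176 and 0.0284). Tnfaip3, an inhibitor of NF-kB signalling (-0.90 ± 0.25, FDR = 0.0154), was lower, and the phosphatase gene Ptpn11 higher (0.53 ± 0.20, FDR = 0.0431).

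Of 28 type I interferon-induced genes, 1 was called higher and 9 lower in Ag+Costim than in Naive, with a median of -0.37. Among those with a mean of at least 5 CPM in either group, the largest decreases were in antiviral genes of the oligoadenylate synthetase family, Oas2 (11.6 ± 7.04 to 1.14 ± 0.408 CPM, log2 fold change -3.34 ± 0.89, edgeR FDR = 0.0131), Oasl1 (-2.38 ± 0.52, FDR = 0.00655) and Oasl2 (-2.28 ± 0.48, FDR = 0.00573), while Oas1a of the same family was higher (0.75 ± 0.27, FDR = 0.0363). Of 19 interferon-gamma-induced genes, 5 were called higher and 5 lower, with a median of -0.06. The higher ones included Cxcl10, a chemokine (1.40 ± 0.44, FDR = 0.0236), Gbp3, a GTPase (1.03 ± 0.22, FDR = 0.00598), and Psmb9, an immunoproteasome subunit (200 ± 59.8 to 368 ± 28.5 CPM, 0.88 ± 0.20, FDR = 0.00724). The lower ones included Socs1 and the GTPase genes Tgtp1 (-1.73 ± 0.34, FDR = 0.00442) and Tgtp2 (-1.61 ± 0.34, FDR = 0.00552). Tgtp1 and Tgtp2 are near-identical copies between which reads can be divided, so their separate values are uncertain.

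**Figure D4:**
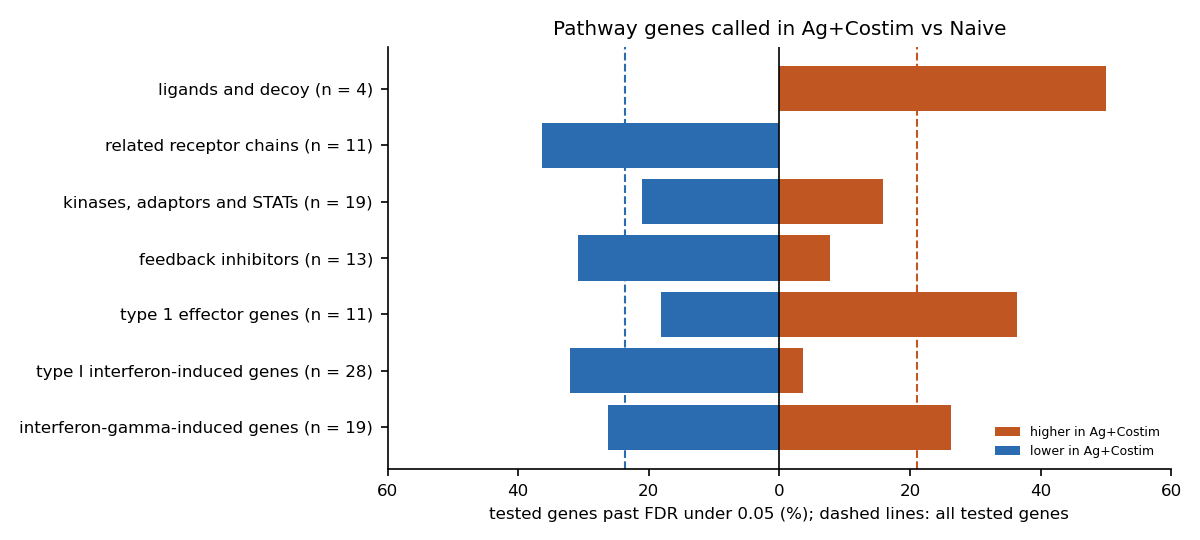
Share of the tested genes of each pathway list called higher (right) or lower (left) in Ag+Costim vs Naive, in percent, with dashed lines at the shares over all genes, 21.0% and 23.6%. Of the 28 type I interferon-induced genes, 1 was called higher and 9 lower.

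In Ag+Costim vs Ag, 0 genes of these 7 lists were called by edgeR. The counts at an unadjusted p under 0.05 were 0 of 4 ligand and decoy genes, 4 of 11 related receptor chains, 2 of 19 kinases, adaptors and STATs, 1 of 13 feedback inhibitors, 2 of 11 type 1 effector genes, 2 of 28 type I interferon-induced genes and 2 of 19 interferon-gamma-induced genes. No share of all genes at that p is given beside these counts, so they do not show whether a list stands out. The related receptors include partners and relatives of the 8 chains, and of 11 tested, 4 were called lower and none higher in Ag+Costim than in Naive. Il23r, which pairs with Il12rb1 to bind IL-23, was at 0.665 to 8.13 CPM in Naive, 0 to 2.07 CPM in Ag and 0 to 0.596 CPM in Ag+Costim (-4.15 ± 0.97 against Naive, edgeR FDR = 0.00833). Il27ra and Il6st, the chains that together bind IL-27, were at 323 ± 102 and 199 ± 79.2 CPM in Naive and at 156 ± 11.5 and 45.9 ± 6.35 CPM in Ag+Costim (-1.05 ± 0.29, FDR = 0.0143, and -2.12 ± 0.48, FDR = 0.00738). The fourth was Il1r1, an IL-1 receptor chain (-3.99, FDR = 0.0153), named here after its value was seen.

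Several of the chains are neighbours on a chromosome. Ifnar2, Il10rb, Ifnar1 and Ifngr2 lie in this order on chromosome 16, with gaps of 0.574, 59.4 and 39.6 kb. Il10rb, a chain of the IL-10 receptor, was at 112 to 138 CPM in Naive, 109 to 143 CPM in Ag and 69.7 to 116 CPM in Ag+Costim (-0.29 ± 0.14 against Naive, edgeR FDR = 0.101). Across this stretch the log2 fold change in Ag+Costim vs Naive was 0.07, -0.29, -0.77 and -4.48 in gene order. Only those of Ifnar1 and Ifngr2 were called, and the part of position on the chromosome was not tested. On chromosome 1, Il1rl1, the IL-33 receptor, ends 136 bases before Il18r1 begins. It was at 1.16 to 23.3 CPM in Naive, with 23.3 in Naive 5, and 12.8 to 28 CPM in Ag+Costim (1.51 ± 0.78, FDR = 0.12), with a larger SE than Il18r1 (0.14) and Il18rap (0.29).

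The genes whose log2 CPM was most like that of each chain over the 15 libraries are given as a description, since libraries of a group share their state, depth and lane. Il12rb1 was most like Fanca, a DNA repair gene (Pearson r = 0.975), and Gm5223 and Mfsd13a followed (0.967 and 0.966). Il12rb2 was most like Cercam (0.979), Ndc1, a nuclear pore gene (0.973), and Thg1l (0.971). Il18r1 was most like Rgs1, a regulator of G protein signalling (0.957), and then Zfp3 and Ikzf3 (both 0.942), of which Ikzf3 encodes the lymphoid factor Aiolos. Il18rap was most like Slc16a3, a lactate transporter (0.969), Soat2 (0.966) and the kinase gene Akt1 (0.96). Ifngr2 was most like Ampd1, an AMP deaminase (0.98), Atp1b1, a sodium pump subunit (0.976), and Xkrx (0.971), which went from 36.4, 101 and 28.7 CPM in Naive to 0.695, 2.68 and 0.425 CPM in Ag+Costim. Ifnar1 was most like Arhgap45 (0.982), Fam53b (0.981) and Slc28a2 (0.98). Ifngr1 (Plac8, 0.905, Ogfod3, 0.888, and Zbtb8a, 0.883) and Ifnar2 (Epsti1, 0.855, and Glmp, 0.841) had no gene as close. Between the chains themselves, the pair of the IL-12 receptor had r = 0.84, that of the IL-18 receptor 0.76, and the pairs of the interferon receptors 0.10 (Ifngr1 and Ifngr2) and 0.16 (Ifnar1 and Ifnar2). Ifngr2 was opposed to Il18rap (r = -0.89) and Ifnar1 to Il12rb1 (r = -0.92).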

How the data were processed

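RNA of 15 libraries (SMART-Seq v4 with Nextera XT) was sequenced as single reads of 50 bases per the labels. The submitters' processing notes name HISAT2 2.1.0, SAMtools 1.9, StringTie 2.1.0, R 4.0.5 and DESeq2 1.30.1 and the build mm10; the authors deposited gene and transcript tables of StringTie estimated counts as whole numbers, not normalised. A quality table deposited by the authors gave lanes, read counts, percent of reads aligned and, as a score without a unit, the input amount used in library preparation. Of 81881 gene entries, 55536 matched GENCODE M21 (GRCm38), and the rest held 0.0818% of counts and were left out. The deposited FPKM table, in which the columns of Ag 1 and Naive 5 are identical, was not used here.

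The test of gene counts was edgeR 4.0.16 (R 4.3.3), with filterByExpr, TMM, robust quasi-likelihood fit over all libraries with a coefficient per group, two-sided tests, Benjamini-Hochberg FDR over 17366 genes. TPM used transcript counts and annotated lengths. Transcript usage was tested with diffSpliceDGE, a gene being called at FDR under 0.05 with a share change of at least 0.1. Methods were tested on simulated data. The study's legends count the replicates as mice, the labels name no animal, and p-values measure the spread between these libraries. Alternatives used DESeq2 1.42.0, limma-voom (limma 3.58.1), other scaling and filters, 2 groups only, lane, the replicate number and libraries left out. The receptor chains and gene lists were chosen with earlier results of these data known. Named genes were the 8 chains, 7 fixed relatives, per list the 3 largest increases and 3 largest decreases among called genes whose higher group averaged 5 CPM or more, and the 3 genes most like each chain. One gene that this rule names is not reported here.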

Additional observations from a re-analysis of the deposited data

Results flagged for a closer look

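Of 36 groups of 5 libraries examined (the CPM of the 8 chains and the log2 TPM ratio of the 4 pairs in each group), 4 held a library whose gap to the nearest other library exceeded 0.71 of the group's range, and chance flags about 1 in 20 groups, or 1.8 of 36. Ifngr2 in Ag+Costim 3 was at 2.60 CPM, against 1.22 to 1.59 CPM in the other Ag+Costim libraries. Ifnar2 in Ag+Costim 4 was at 83.3 CPM, against 121 to 131 CPM in the others. The log2 ratio of Il12rb1 to Il12rb2 in Ag+Costim 1 was -0.90, against -0.53 to -0.39 in the others. The log2 ratio of Ifnar1 to Ifnar2 in Naive 5 was -0.60, against 0.19 to 0.51 in the others.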

How the results depend on the processing

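Ifngr2 was lower in Ag+Costim than in Naive in all 21 alternatives, with a log2 fold change between -4.73 and -4.26 and the FDR under 0.05 in each. For 1165, 6 and 7755 genes called in Ag vs Naive, Ag+Costim vs Ag and Ag+Costim vs Naive, leaving out 1 library gave 255 to 3871, 0 to 3573 and 3892 to 9164, and for 2, 0 and 5 receptor chains 1 to 4, 0 to 1 and 2 to 6. DESeq2 gave 2778 genes in Ag vs Naive and, in Ag+Costim vs Ag, 2533 genes and 1 chain. Without a filter the genes were 208, 3 and 4158, with 1 chain in Ag vs Naive. With lane as a term they were 0, 0 and 943, with 0, 0 and 1 chains. Limma-voom gave 4020, 11195 and 13525 genes, with 4 and 6 chains in the first 2 comparisons. With 2 groups only, Ag vs Naive had 6 genes and 0 chains, and Ag+Costim vs Ag had 0 genes, as did lane 2 alone. Without Ag 3 and Naive 5 the genes were 3945 and 989 in the first 2 comparisons, with 1 chain in Ag+Costim vs Ag. Chosen after seeing the data, library totals from before the filter gave 33 genes in Ag+Costim vs Ag, and leaving out Ag 2 and Ag 5, which stand with Ag+Costim, gave 9751 genes and 4 chains there and 10877 genes in Ag+Costim vs Naive; the cause was not tested. Of pathway genes, 42 were called in Ag+Costim vs Naive, 21 without a filter, 9 with lane as a term, 71 with limma-voom and 23 to 52 without 1 library.

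Directions turned only for values near 0 or for Il12rb2. Il12rb2 in Ag vs Naive was -2.43 with limma-voom and -0.43 without Ag 2 and Ag 5, and -0.43 to 1.20 over all settings that leave out libraries. Ifnar2 was -0.01 (lane as a term) in Ag vs Naive, 0.03 (no filter) in Ag+Costim vs Ag, and -0.08 (no TMM), -0.12 (lane as a term) and -0.12 (lane 3) in Ag+Costim vs Naive. Il18r1 in Ag+Costim vs Ag was -0.06 without TMM and -0.06 to 0.19 over those settings, lowest without Ag 1. Ifngr1 in Ag+Costim vs Naive was 0.06 without a filter, 0.06 without Ag+Costim 4 and 0.02 without Ag 2 and Ag 5, and -0.19 to 0.06 over those settings. The Ifnar1 to Ifnar2 ratio in Ag+Costim vs Ag was -0.01 with no length correction. Transcript usage called 0 chains in each alternative run.

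Replicate numbers did not pair the libraries: deviations of same-numbered libraries correlated between -0.324 and 0.47. With the replicate block, 1660, 0 and 7833 genes and 2, 0 and 5 chains were called in the 3 comparisons.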
